A study of Homo sapiens with 6 samples.

Results

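Nuclear hormone receptors are transcription factors whose activity is set by small lipophilic ligands. The 9 genes described here form a chosen set of steroid and other nuclear hormone receptors: ESR1, ESR2, PGR and NR3C1 encode receptors for estrogens, progesterone and glucocorticoids, and PPARG, RARA, RARG, THRA and NR1H2 encode receptors for fatty acid derivatives, retinoic acid, thyroid hormone and oxysterols. Their members on the array were all 27 non-control probes whose sequence matched, without mismatch, a sense transcript of one of these genes, out of 125601 probes that are not controls and 43495 genes with a match. Because the gene name column of the scanner files only repeats the probe name, every member was found by sequence. All 9 genes had at least 2 probes, and RARG had 6.

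The data came from 6 single-color Agilent arrays of SKOV3, an established human ovarian cancer cell line; the labels write its name as SKOV-1, SKOV-3 or SKOV-13 in different fields, and the study's spelling is used here. 3 arrays were labelled as cells given 1α,25(OH)2D3, the hormonally active form of vitamin D, at 100 nmol/L for 72 h (VD 1, VD 2 and VD 3). The other 3 were labelled as cells given the same concentration of the ethanol vehicle over the same time (vehicle 1, vehicle 2 and vehicle 3). No genetic change separated the labels, and nothing in them says whether the arrays came from separate cultures, so p-values measure only the spread between these arrays.

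Steroid receptors bind DNA mostly as pairs of like molecules, whereas PPAR, RAR, thyroid hormone and liver X receptors bind as heterodimers with a retinoid X receptor, the partner that the vitamin D receptor also uses. In epithelial ovarian cancer, estrogen and progesterone receptors are used to describe tumours, and the glucocorticoid receptor and retinoic acid receptors are expressed in many cell types. The question asked of each receptor gene was at what level its probes read on each array, and whether the arrays carrying the different labels differed.

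The arrays did not split by label for CYP24A1, which encodes the enzyme that inactivates 1α,25(OH)2D3 and is a well known target of the vitamin D receptor. The deposited log2 value of its probe A_23_P28815 was 2.23 on VD 1, 13.84 on VD 2, 3.30 on VD 3, 14.18 on vehicle 1, 4.75 on vehicle 2 and 14.34 on vehicle 3. By this probe CYP24A1 was therefore high on 1 array labelled VD and on 2 labelled vehicle. The CYP24A1 probe A_33_P3369401 was highest on the same arrays, but vehicle 2, at 8.235, lay well above VD 1 (3.875) and VD 3 (4.46). The remaining CYP24A1 probe, OEV5_63001, was above background on the same arrays as A_23_P28815. The study describes this gene as raised by the hormone, and by the deposited labels it ran the other way, so arrays are called here by their labels and every direction is one between labels. VD 1 and VD 2 shared a slide, and VD 3 shared the other slide with the vehicle arrays. Between 49.07% and 57.54% of probes cleared background by the scanner's flag, depending on the array, no spot was saturated, and rank correlations between arrays lay between 0.934 and 0.959. The leading probes of all 5 epithelial markers (KRT8, KRT18, KRT19, ERBB2 and PAX8) were well above background on all 6 arrays, and that of KRT19 was 0.75 ± 0.32 lower with label VD (log2, SE; unadjusted p = 0.0467, adjusted p = 0.701, limma), whose part in the results below was not tested. Of 14 probes for markers of leukocytes, endothelium, B cells and fibroblasts, 9 cleared background on no array, among them all 3 of DCN, and 4 did on all 6. The defining markers were thus not all absent: the leading probes of PTPRC (6.49 to 7.14), PECAM1 (5.44 to 7.497) and CD79A (16.32 to 16.77, its only probe) cleared background on all 6 arrays, while the other probes of PTPRC did so in 1 case of 7 and the other PECAM1 probe on 2 arrays. The RNA came from a cultured cell line, and what these marker probes read in it was not tested. In bulk RNA of this kind, fewer cells expressing a gene and less RNA per cell cannot be told apart.

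Detection divided the receptors into genes read on every array and genes near background. At least 1 probe of ESR1, NR3C1, PPARG, RARA, RARG, THRA and NR1H2 was well above background on all 6 arrays, whereas no probe of ESR2 or PGR was so on more than 1 array. In all, 19 of the 27 member probes were well above background on all 6 arrays, 4 on some and 4 on none. Over all probes of the array, 45.4% were well above background on all 6 arrays and 37.4% on none.

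**Figure D1:**
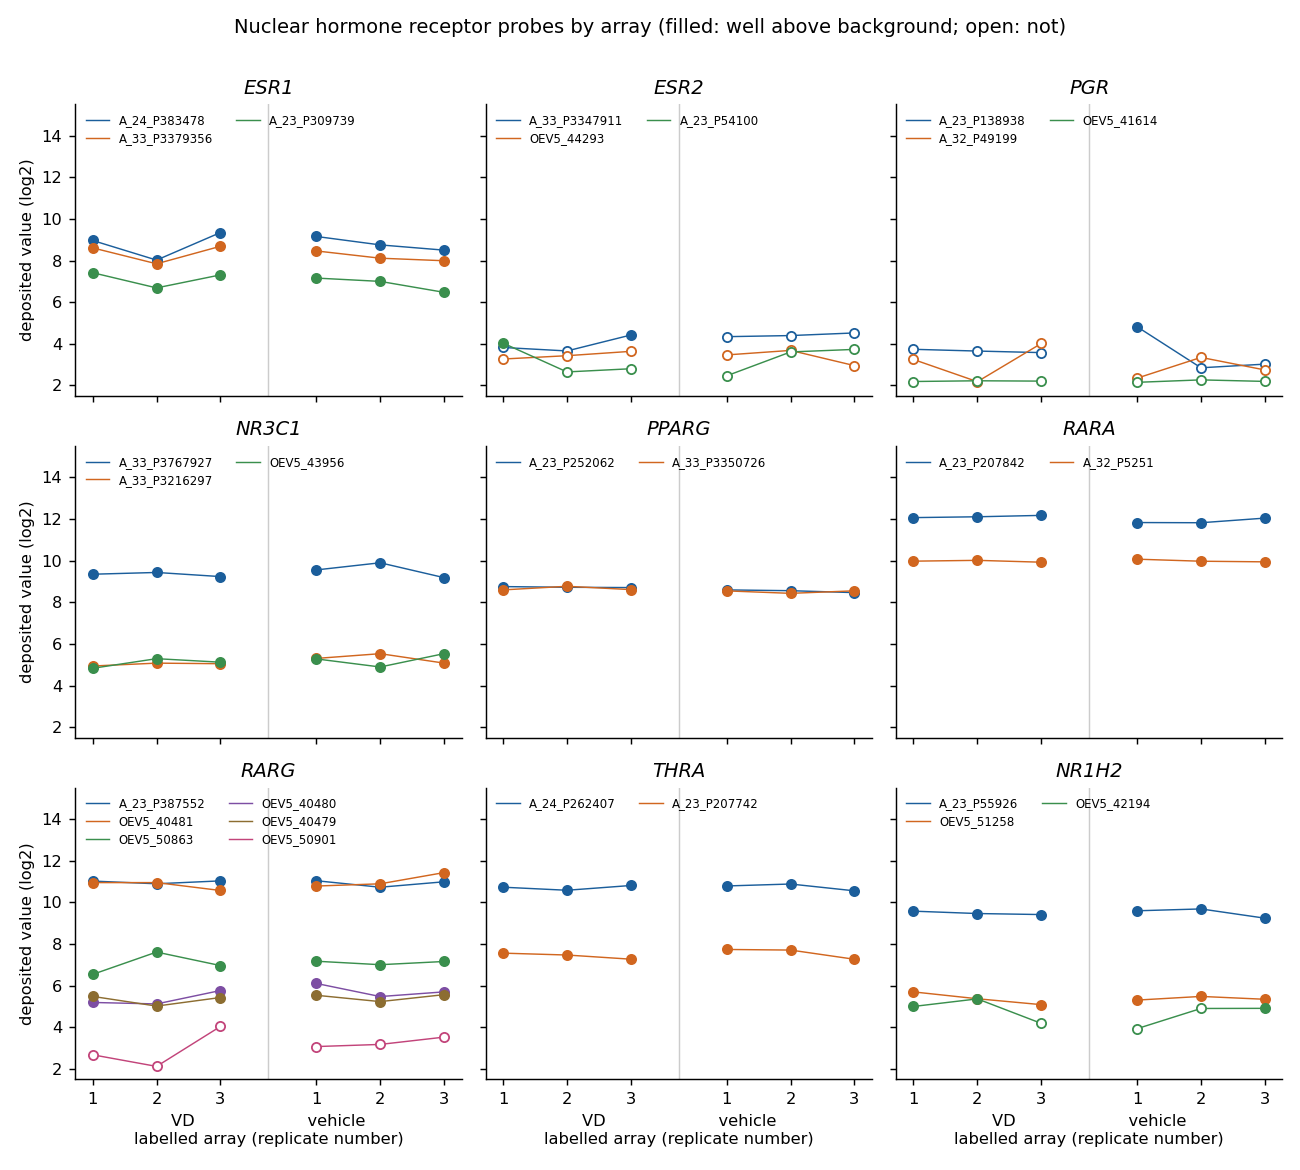
Deposited log2 value of each member probe (y axis) on each of the 6 labelled arrays (x axis), 1 panel per gene and 1 colour per probe, with filled points for values well above background and open points for values that were not. ESR2 and PGR have 3 filled points in all, while every ESR1, NR3C1, PPARG, RARA and THRA point is filled. Heights of different probes are not comparable.

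ESR1, the gene of estrogen receptor alpha, was read by probes at its start, in its middle and at its end. The probes that lie in coding sequence are printed because they show that separate exons of the ESR1 message were measured; the start codon is in capitals, and sequences here and below run 5′ to 3′ as on the array and equal the hg38 reference.
ESR1 A_24_P383478: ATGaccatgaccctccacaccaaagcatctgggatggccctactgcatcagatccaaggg
ESR1 A_33_P3379356: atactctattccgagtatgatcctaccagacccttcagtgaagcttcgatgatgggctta
A_24_P383478 lies in exon 1 of 8 of the canonical transcript ESR1-201, at chr6:151807913-151807972 of hg38 on the plus strand. A_33_P3379356 lies in exon 4, at chr6:151944388-151944447. The remaining probe, A_23_P309739, lies in the 3′ untranslated part of exon 8, at chr6:152102773-152102832.

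The exon 1 probe of ESR1 read 8.96 on VD 1, 8.02 on VD 2, 9.34 on VD 3, 9.16 on vehicle 1, 8.75 on vehicle 2 and 8.50 on vehicle 3. The exon 4 probe read 8.61, 7.84 and 8.69 on VD 1 to VD 3 and 8.46, 8.11 and 7.99 on vehicle 1 to vehicle 3. The exon 8 probe read 7.41, 6.69 and 7.31 on VD 1 to VD 3 and 7.16, 6.999 and 6.47 on vehicle 1 to vehicle 3. By all 3 probes VD 2 and vehicle 3 were the lowest arrays, vehicle 2 came next, and the highest array was VD 1 or VD 3. The labels overlapped for each probe, since VD held both the highest value and 1 of the 2 lowest. The exon 1 probe had the widest range over the arrays of the 19 member probes detected throughout, 1.32 on the log2 scale or 2.50-fold, against a median of 0.65 over all probes detected on all 6 arrays. The difference of label VD minus label vehicle was −0.03 ± 0.35 for exon 1, 0.19 ± 0.26 for exon 4 and 0.26 ± 0.26 for exon 8 (log2, SE of limma). The 95% interval for exon 1 ran from −0.83 to 0.78, and the 3 adjusted p-values were 0.987, 0.845 and 0.792 (limma, Benjamini-Hochberg over all probes tested). With the slide as a block, which rests on VD 3 against the vehicle arrays, the exon 1 difference turned to 0.54, beside 0.50 for exon 4 and 0.43 for exon 8, with an adjusted p of 0.966 for exon 1.

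ESR2, the gene of estrogen receptor beta, stood apart from ESR1 in that almost none of its readings cleared background. Its probes are printed because they show which parts of the message were probed. A_23_P54100 lies wholly in exon 7, A_33_P3347911 wholly in exon 4, and OEV5_44293 joins exon 6 (lower case) directly to exon 8 (capitals), a junction found in transcript ESR2-211 alone.
ESR2 A_23_P54100: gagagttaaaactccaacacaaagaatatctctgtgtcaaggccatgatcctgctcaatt
ESR2 A_33_P3347911: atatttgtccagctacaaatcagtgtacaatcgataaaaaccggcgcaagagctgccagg
ESR2 OEV5_44293: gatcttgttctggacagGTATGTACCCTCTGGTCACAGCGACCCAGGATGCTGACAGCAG
They were placed on the minus strand of chromosome 14, at chr14:64249549-64249608, chr14:64268840-64268899 and, with the skipped exon between its parts, chr14:64235108-64257242. The exon 7 probe read 4.03 on VD 1, where alone it was well above background, and 2.65, 2.80, 2.46, 3.61 and 3.73 on VD 2, VD 3 and vehicle 1 to vehicle 3. The exon 4 probe, which the array carries in 10 spots, read 3.82, 3.66 and 4.42 on VD 1 to VD 3 and 4.34, 4.40 and 4.52 on vehicle 1 to vehicle 3. It counted as well above background on VD 3 alone, where 6 of 10 spots cleared it, against 1 to 4 spots on the other arrays. The spots of this probe on 1 array had an SD of 0.32 to 0.75 on the log2 scale of the scanner signal. The exon 6 to exon 8 junction cleared background nowhere, with values between 2.95 and 3.68. No ESR2 probe could be tested, and no fold is given.

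PGR, the progesterone receptor and a classical target of estrogen receptor alpha, was also near background. The only PGR probe with a reading above background, in exon 7 of the canonical transcript PGR-202 at chr11:101041978-101042037 on the minus strand, is the one printed.
PGR A_23_P138938: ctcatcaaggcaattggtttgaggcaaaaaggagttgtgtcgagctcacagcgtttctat
It read 4.82 on vehicle 1, where alone it was well above background, and 3.74, 3.65, 3.58, 2.85 and 3.02 on VD 1, VD 2, VD 3, vehicle 2 and vehicle 3. The probe in the last exon, A_32_P49199, lay between 2.18 and 4.02, and the intronic probe OEV5_41614, matched to transcript PGR-205 alone, lay between 2.15 and 2.27. Neither cleared background on any array.

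NR3C1, the glucocorticoid receptor gene, was detected on every array by all 3 of its probes. None of these lies in coding sequence: A_33_P3767927 and A_33_P3216297 are in the 3′ untranslated part of exon 9 of transcript NR3C1-203 (chr5:143281164-143281223 and chr5:143277953-143278012, minus strand), and OEV5_43956 lies outside that transcript, on NR3C1-210 and NR3C1-213 (chr5:143409160-143409219). A_33_P3767927 read 9.35, 9.43 and 9.23 on VD 1 to VD 3 and 9.55, 9.90 and 9.18 on vehicle 1 to vehicle 3. Vehicle 2 was highest and vehicle 3 lowest, so the vehicle arrays spanned the VD arrays on both sides. A_33_P3216297, carried in 10 spots, read 4.94, 5.08 and 5.05 on VD 1 to VD 3 and 5.30, 5.53 and 5.08 on vehicle 1 to vehicle 3. Its labelled groups did not overlap, but VD 2 and vehicle 3 lay 0.001 apart, and with the scanner signals in place of the deposited values the groups overlapped. OEV5_43956 read 4.83, 5.29 and 5.12 on VD 1 to VD 3 and 5.28, 4.89 and 5.53 on vehicle 1 to vehicle 3, with vehicle 2 among the lowest where the other probes had it highest. The label differences were −0.21 ± 0.21, −0.28 ± 0.17 and −0.15 ± 0.22 (log2, SE), and the smallest adjusted p of the 3 was 0.704 (limma).

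PPARG, a lipid-sensing receptor best known from fat cells, was read by 2 coding probes, each of which varied little over the arrays. They are printed because they lie in different exons of the canonical transcript PPARG-217, exon 7 (chr3:12417000-12417059, plus strand) and exon 5 (chr3:12392629-12392688), and moved the same way between labels.
PPARG A_23_P252062: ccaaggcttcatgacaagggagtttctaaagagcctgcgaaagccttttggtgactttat
PPARG A_33_P3350726: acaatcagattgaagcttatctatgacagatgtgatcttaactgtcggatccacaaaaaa
The exon 7 probe read 8.75, 8.72 and 8.71 on VD 1 to VD 3 and 8.59, 8.56 and 8.46 on vehicle 1 to vehicle 3. The exon 5 probe read 8.59, 8.77 and 8.61 on VD 1 to VD 3 and 8.55, 8.43 and 8.55 on vehicle 1 to vehicle 3. For both probes every VD array lay above every vehicle array, and labelled groups did not overlap for 12.2% of all probes tested. The differences were small, 0.19 ± 0.14 and 0.15 ± 0.15 on the log2 scale, with 95% intervals from −0.14 to 0.51 and from −0.19 to 0.49 and adjusted p-values of 0.729 and 0.786 (limma). Within the slide that held both labels they were 0.17 and 0.10. The exon 7 probe was the only member probe whose groups stayed apart with the deposited values, the scaled scanner signals and the normexp values. These are processings of the same arrays, and the share of all probes that stayed apart in each of them was not counted.

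RARA, retinoic acid receptor alpha, had 2 probes in the 3′ untranslated part of exon 9 of RARA-201, close together at chr17:40356922-40356981 and chr17:40356676-40356735 on the plus strand. A_23_P207842 read 12.07, 12.11 and 12.17 on VD 1 to VD 3 and 11.83, 11.82 and 12.04 on vehicle 1 to vehicle 3. A_32_P5251 read 9.97, 10.01 and 9.93 on VD 1 to VD 3 and 10.07, 9.97 and 9.94 on vehicle 1 to vehicle 3. The neighbouring probes did not share a pattern: the former separated the labels by 0.22 ± 0.15, and the latter, with a range of 0.15 that was the narrowest of the detected member probes, gave −0.02 ± 0.14 with overlapping groups. The adjusted p-values were 0.718 and 0.971 (limma), and with the scaled scanner signals the groups of A_23_P207842 overlapped as well.

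RARG, retinoic acid receptor gamma, was covered by 6 probes, most of them for alternative transcripts. A_23_P387552, in the 3′ untranslated part of exon 10 of RARG-203 (chr12:53210781-53210840, minus strand), read 11.02, 10.89 and 11.03 on VD 1 to VD 3 and 11.04, 10.73 and 10.99 on vehicle 1 to vehicle 3. OEV5_40481, in an intron of RARG-203 and matched to RARG-218 alone, read 10.95, 10.95 and 10.57 on VD 1 to VD 3 and 10.78, 10.89 and 11.43 on vehicle 1 to vehicle 3. Vehicle 2 was lowest for the former and VD 3 for the latter, and the labels overlapped for both. OEV5_50863, outside RARG-203 and matched to RARG-213 and RARG-214, read 6.54, 7.61 and 6.96 on VD 1 to VD 3 and 7.17, 7.01 and 7.16 on vehicle 1 to vehicle 3. Its range of 1.07 lay within the VD arrays, whose highest and lowest values enclosed all 3 vehicle arrays. OEV5_40480, which crosses a splice junction of RARG-206, RARG-212 and RARG-216, read 5.19, 5.12 and 5.76 on VD 1 to VD 3 and 6.10, 5.48 and 5.70 on vehicle 1 to vehicle 3. It gave the largest label difference of the 19 member probes tested, −0.40 ± 0.24, with an adjusted p of 0.704 (limma), and VD 3 lay among the vehicle arrays. Without VD 3 that difference was −0.60 with an adjusted p of 0.281, and within the slide that held both labels it was 0.005. OEV5_40479, matched to RARG-210 alone, lay between 5.02 and 5.57 with overlapping labels, and OEV5_50901, matched to RARG-217 alone, cleared background on none.

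THRA, thyroid hormone receptor alpha, is a gene whose alternative 3′ ends give a hormone-binding product and one that does not bind the hormone. The coding probe of exon 9 of THRA-203 (chr17:40089275-40089334, plus strand), which 5 of the annotated THRA transcripts contain, is printed.
THRA A_24_P262407: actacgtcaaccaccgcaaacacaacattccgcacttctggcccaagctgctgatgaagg
It read 10.73, 10.58 and 10.81 on VD 1 to VD 3 and 10.79, 10.88 and 10.55 on vehicle 1 to vehicle 3. VD 2 and vehicle 3 were its lowest arrays, as for ESR1, although its range of 0.33 was far narrower. A_23_P207742 lies beyond THRA-203, on THRA-201 and THRA-209 (chr17:40093755-40093814), where NR1D1 is annotated on the opposite strand, and read 7.56, 7.47 and 7.27 on VD 1 to VD 3 and 7.74, 7.71 and 7.27 on vehicle 1 to vehicle 3. Vehicle 3 and VD 3 were lowest there. The label differences, −0.03 ± 0.16 and −0.14 ± 0.19, had adjusted p-values of 0.960 and 0.846 (limma).

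NR1H2, the liver X receptor beta gene, encodes a sensor of oxidised cholesterol that is expressed in most tissues. Its coding probe in exon 7 of NR1H2-201 (chr19:50379072-50379131, plus strand), shared by 5 annotated transcripts, is printed.
NR1H2 A_23_P55926: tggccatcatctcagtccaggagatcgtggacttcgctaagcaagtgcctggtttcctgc
It read 9.58, 9.46 and 9.41 on VD 1 to VD 3 and 9.60, 9.68 and 9.24 on vehicle 1 to vehicle 3, with vehicle 2 highest and vehicle 3 lowest. The intronic probe OEV5_51258, matched to NR1H2-205 alone, read 5.70, 5.37 and 5.09 on VD 1 to VD 3 and 5.30, 5.48 and 5.34 on vehicle 1 to vehicle 3. The vehicle arrays lay inside the VD arrays for this probe and outside them for the coding one. OEV5_42194, matched to NR1H2-213 alone, was well above background on VD 1, VD 2 and vehicle 3 and was not tested. The label differences of the tested probes were −0.02 ± 0.17 and 0.01 ± 0.19, with adjusted p-values of 0.978 and 0.992 (limma).

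Over the 19 member probes tested, which belong to 7 genes and share the same 6 arrays, no difference between labels passed the adjusted threshold of 0.05 and none had an unadjusted p under 0.05 (limma). The smallest unadjusted p was 0.135 and the smallest adjusted p 0.704. Over all 63337 probes tested, 0% passed the adjusted threshold and 6.77% had an unadjusted p under 0.05, so a count of 0 for 19 probes lies near the background. None changed by more than 2-fold; over all probes 0.745% did with an unadjusted p under 0.05. Differences were positive for 7 member probes and negative for 12, with a median of −0.03 and a range from −0.40 to 0.26, beside a median of −0.004 and 49.4% positive over all probes. The labelled groups did not overlap for 4 of the 19 probes (21.1%), namely 2 of PPARG, 1 of RARA and 1 of NR3C1, against 12.2% of all probes tested. All 95% intervals lay between −0.97 and 0.87 on the log2 scale. Their width came from the spread of 3 arrays a label, which limma moderates with the spread of all probes tested. For PPARG A_23_P252062, for instance, the SDs were 0.024 (VD) and 0.067 (vehicle), and the moderated SE of the difference was 0.139.

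**Figure D2:**
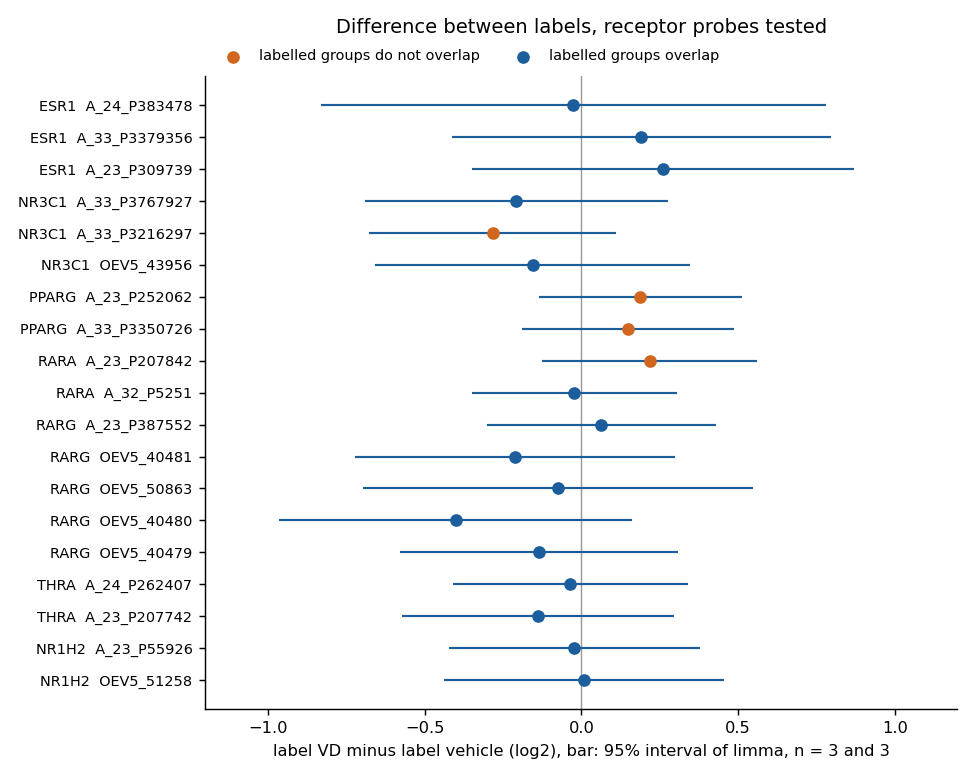
Difference of label VD minus label vehicle (x axis, log2) for the 19 member probes tested (y axis), with the 95% interval of limma as a bar and 3 arrays per label. Every interval crosses 0, and the 4 orange points mark probes whose labelled groups did not overlap.

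Set beside the CYP24A1 probe rather than the labels, the receptors again showed no common split. As a description with no test, the 3 arrays where A_23_P28815 was high (VD 2, vehicle 1 and vehicle 3) lay wholly to one side of the other 3 for 2 of the 19 tested member probes (10.5%), against 6.17% of all probes tested. These were NR3C1 OEV5_43956 and RARG OEV5_50863, each higher on the CYP24A1-high arrays, by margins of values already given (5.28 above 5.12, and 7.16 above 7.01). No other probe of either gene showed this. ESR1 was low on VD 2 and vehicle 3 but not on vehicle 1, so its pattern followed neither the labels nor CYP24A1.

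Since the exon 1 probe of ESR1 varied most among the detected member probes, the other nuclear receptor probes were ranked by how closely they followed it. Likeness was the mean absolute difference, over the 6 arrays, of log2 values centred on each probe's mean, and 61 probes of other nuclear receptor genes were compared. The nearest were NR1D2 A_33_P3270429 (0.14), RORA OEV5_39185 (0.18) and PPARA A_24_P570049 (0.22), beside 0.16 and 0.24 for the exon 4 and exon 8 probes of ESR1 itself. NR1D2 read 5.72, 5.09 and 6.20 on VD 1 to VD 3 and 5.96, 5.995 and 5.41 on vehicle 1 to vehicle 3. This NR1D2 probe shared with ESR1 the low values of VD 2 and vehicle 3, whereas that of RORA was low on VD 2 alone and that of PPARA was lowest on vehicle 2. The likeness was one of single probes and not of genes: the other NR1D2 probes lay at 0.36 and 0.40, the other PPARA probe at 0.41, and RORA OEV5_42819 and A_23_P26124 were the least alike of all 61, at 0.715 and 0.853. These probes were chosen for their likeness and share the same RNA and arrays, so the values are a description.

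**Figure D3:**
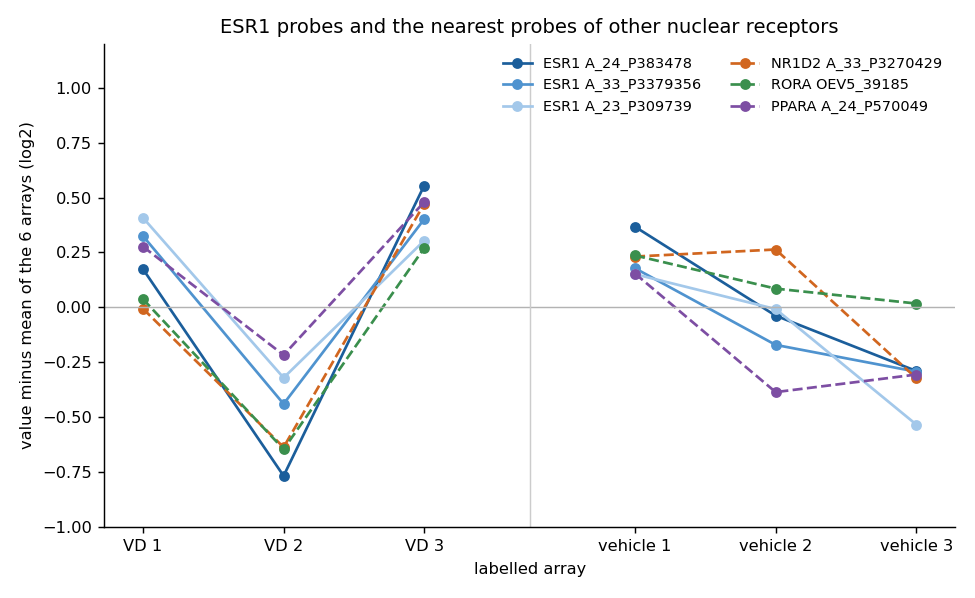
Values centred on each probe's mean over the 6 arrays (y axis, log2) by labelled array (x axis) for the 3 ESR1 probes (solid lines) and the nearest probe of 3 other nuclear receptor genes (dashed lines). All 6 lines are below 0 on VD 2 and above 0 on VD 3 and vehicle 1.

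By label, no tested probe of the other human nuclear receptors passed the adjusted threshold either. Of 39 genes, the leading probe of 29 was well above background on all 6 arrays and that of 7 on some. Among 31 leading probes tested, none passed the adjusted threshold or had an unadjusted p under 0.05 (limma), 19 differences were positive and 12 negative, and their median was 0.05. The labelled groups did not overlap for 0 of the 31 leading probes and for 1 of all 51 tested probes of these genes, HNF4G A_33_P3286492, against 12.2% of all probes. Counting every probe, 1 of 51 had an unadjusted p under 0.05, PPARA A_23_P211643, which read 6.76, 6.12 and 6.43 on VD 1 to VD 3 and 6.19, 5.44 and 5.85 on vehicle 1 to vehicle 3. Its groups overlapped, and its difference of 0.61 ± 0.25 had an adjusted p of 0.701 (limma), while the leading PPARA probe, A_24_P570049, differed by 0.36 ± 0.24 with an adjusted p of 0.714.

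Textbook target genes of the member receptors were read in the same way. Of 31 genes, 28 had a probe that matched no other gene, and 19 leading probes were tested. None passed the adjusted threshold and 2 had an unadjusted p under 0.05 (10.5%, against 6.77% of all probes), 1 higher and 1 lower with label VD, where 4% of all probes were higher and 2.76% lower. TSC22D3, a glucocorticoid-induced leucine zipper gene, read 6.44, 6.26 and 7.25 on VD 1 to VD 3 and 6.27, 5.47 and 5.01 on vehicle 1 to vehicle 3, a difference of 1.07 ± 0.38 with an adjusted p of 0.701 (limma). TGM2, a transglutaminase induced by retinoic acid, read 7.93, 9.58 and 8.35 on VD 1 to VD 3 and 9.13, 10.73 and 10.71 on vehicle 1 to vehicle 3, a difference of −1.57 ± 0.55 with an adjusted p of 0.701. Both overlapped between labels, vehicle 1 lying within the range of the VD arrays each time. Neither had an unadjusted p under 0.05 without VD 3, without vehicle 2 or without vehicle 3, and TGM2 lost it also without VD 1, with the slide as a block and within the slide that held both labels. The leading probes of all 6 glucocorticoid-induced genes of the list (FKBP5, TSC22D3, PER1, ZBTB16, DUSP1 and KLF9) were tested, and 5 of the differences were positive, with DUSP1, a phosphatase, at −0.51 ± 0.39. Over all probes tested 49.4% were positive. The differences of ZBTB16 (0.025 ± 0.149) and PER1 (0.10 ± 0.15) were small, and the other PER1 probes ran from −0.23 (OEV5_40420) to 0.28 (OEV5_43098). Of the 5 estrogen-induced genes, the leading probes of TFF1, GREB1 and CXCL12 were well above background on all 6 arrays. Their label differences were −0.01 ± 0.15, 0.05 ± 0.19 and 0.28 ± 0.17. CXCL12 A_33_P3372840 was also well above background on all 6 arrays, with a difference of −0.045 ± 0.15. The remaining CXCL12 probes and the other 2 GREB1 probes cleared background nowhere. IGFBP4 cleared it on 1 array, and the PDZK1 probe also matched another gene. The labelled groups did not overlap for 4 of the 19 leading probes (21.1%, against 12.2% of all probes). Those of SREBF1 and LPCAT3, which act in lipid synthesis and remodelling, were higher with label VD by 0.15 and 0.27. Those of ABCG1, a sterol exporter, and CPT1A, which carries fatty acids into mitochondria, differed by −0.22 and −0.25, lower with label VD. The other SREBF1 and LPCAT3 probes detected on all 6 arrays overlapped between labels. They gave 0.59 for SREBF1 A_23_P129786, −0.25 for SREBF1 OEV5_27167 and 0.31 for LPCAT3 OEV5_68058. None of these had an unadjusted p under 0.05.

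**Figure D4:**
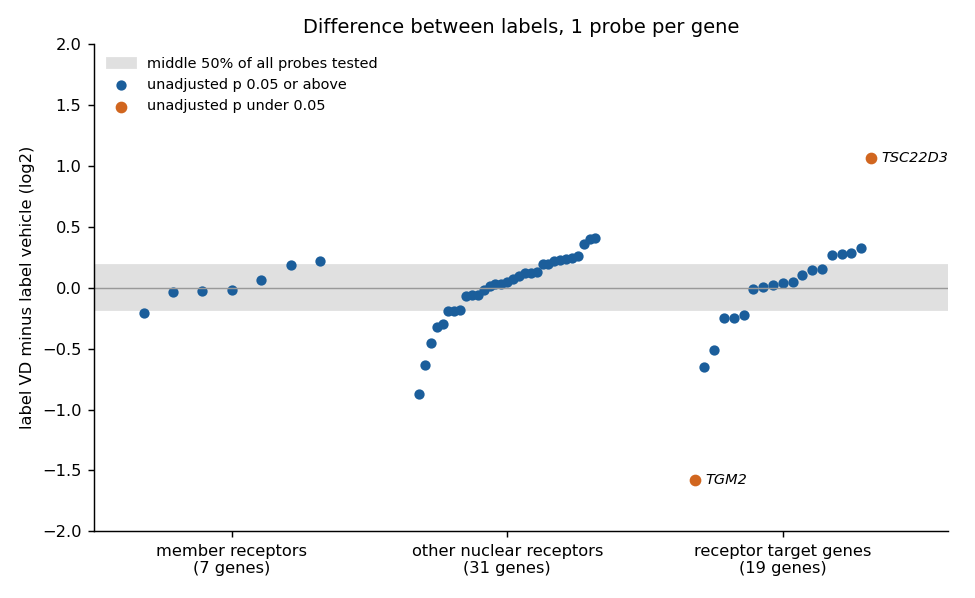
Difference of label VD minus label vehicle (y axis, log2) for the leading probe of each gene tested, sorted within the 7 member receptors, 31 other nuclear receptors and 19 receptor target genes (x axis), with a grey band for the middle part of all probes tested (−0.18 to 0.19). The member receptors lie close to that band, and only TGM2 and TSC22D3 have an unadjusted p under 0.05.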

How the data were processed

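Values came from 6 single-color arrays. The authors scanned them with Agilent Feature Extraction 10.7.1.1 and deposited, per spot, the intensity on a linear scale (mean, local background and a background-corrected processed signal) with detection flags. Besides, a table of log2 values was deposited by the authors, 1 per probe and array, whose sorted columns differ by at most 0.00091, so it had been quantile normalized; the tool used for this is not given in the sources used here. Each column ranked its probes as its own scanner file did (rank correlation 0.9998 or higher). All member values are these deposited log2 values, and detection is the well-above-background flag. It was taken as met where a share above 0.5 of a probe's kept spots carried it. Control and outlier spots were left out.

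Probe sequences were matched without mismatch to GENCODE release 44 transcripts in sense, and 90604 of 125601 probes matched. Member probes were placed on hg38; the array's own grid is of build hg19, whose coordinates were not used. The 63337 probes that cleared background on all 3 arrays of either label were tested with limma 3.58.1 in R 4.3.3 (lmFit and eBayes, label VD minus label vehicle, no covariate), with Benjamini-Hochberg adjustment over all of them and a threshold of 0.05. The fit was tested on simulated data. The leading probe of a gene is the one with the highest mean deposited value. Groups came from the array labels. The labels name a kit for RNA extraction that differs from the reagent in the study's methods.

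The receptor set, the 39 other nuclear receptors, the 31 target genes and the cell type markers were chosen with earlier results of these data known. Named were all members, the CYP24A1 probe, genes of the lists with an unadjusted p under 0.05, and the 3 probes most like the member probe of widest range; other genes were named after their values were seen. Alternatives were scanner signals scaled to the 75th percentile, normexp with an offset of 50 and quantile normalization, no filter or a filter on all 6 arrays, the slide as a block or 1 slide alone, the replicate block, and each array left out in turn. The detection of some other nuclear receptors is not reported here.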

Additional observations from a re-analysis of the deposited data

How the results depend on the processing

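No member probe passed the adjusted threshold under any alternative, and none had an unadjusted p under 0.05 except without VD replicate 3, where 1 did, RARG OEV5_40480 (range 0 to 1 when each array was left out in turn). The lowest adjusted p of a member under any alternative was 0.281. Over all probes, 0 passed the adjusted threshold in every setting except without vehicle replicate 1, where 4 did; with an unadjusted p under 0.05 there were 4286, 1561 without VD replicate 1, 2571 without vehicle replicate 2, 2617 with the slide as a block, 2141 within 1 slide, 6470 without vehicle replicate 1, 9655 without VD replicate 3 and 7029 with no filter. Among leading probes of the other nuclear receptors, 1 had an unadjusted p under 0.05 with normexp, 2 with the replicate block and 0 to 3 with each array left out. Among target genes it was 3 with no filter, where MYLIP joined the 2 named genes, and 3 with the replicate block, where STRA6 joined them. It was 0 to 3 with each array left out: 3 without vehicle replicate 1 and 0 without vehicle replicate 2 or 3. It was 1 (TSC22D3) without VD replicate 1 and 1 (STRA6 in place of the named genes) without VD replicate 3. The deviations of same-numbered arrays correlated at 0.121, 0.092 and −0.025, within the range of −0.246 to 0.194 for arrays of different numbers. So few arrays cannot tell whether the replicate numbers pair them. With the replicate block 4737 probes had an unadjusted p under 0.05 (limma), and no member did. Of the 19 member differences, 10 kept their sign in all settings. With normexp the sign turned for ESR1 A_24_P383478 (0.009), NR1H2 A_23_P55926 (0.041), NR1H2 OEV5_51258 (−0.011), RARA A_32_P5251 (0.051) and THRA A_24_P262407 (0.066). With the slide as a block, and equally within 1 slide, it turned for ESR1 A_24_P383478 (0.542), NR1H2 OEV5_51258 (−0.290), RARG OEV5_40480 (0.005) and THRA A_24_P262407 (0.069). With 1 array left out, the ranges that held both signs were −0.310 to 0.352 for ESR1 A_24_P383478, −0.155 to 0.067 for NR1H2 A_23_P55926, −0.149 to 0.157 for NR1H2 OEV5_51258, −0.049 to 0.015 for RARA A_32_P5251, −0.031 to 0.125 for RARG A_23_P387552, −0.242 to 0.011 for RARG OEV5_40479, −0.360 to 0.176 for RARG OEV5_50863 and −0.128 to 0.035 for THRA A_24_P262407. The cause of these changes was not tested. With 3 arrays a label, their number limits the precision, and dim ESR2 and PGR probes carry no measurable difference.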

Other observations

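Among the genes related to the member receptors, some ran opposite to the CYP24A1 probe A_23_P28815 from array to array and were named after their values were seen. ABCA1, a cholesterol exporter and target of the liver X receptors, read 8.06 on VD 2, 8.90 on vehicle 1 and 7.48 on vehicle 3, where CYP24A1 was high, and 9.49 on VD 1, 9.59 on VD 3 and 9.92 on vehicle 2, where it was low. The other ABCA1 probe, A_33_P3422897, read 6.54, 6.94 and 6.37 on the former arrays and 7.60, 7.997 and 8.24 on the latter. NR1D1, a circadian repressor, read 7.64, 8.10 and 7.90 on the CYP24A1-high arrays and 8.42, 9.26 and 9.87 on the others. For ABCA1 and NR1D1 every CYP24A1-high array was thus below every other array, on both slides. Every tested probe of ABCG1, SREBF1 and LPCAT3, liver X receptor targets too, overlapped between the CYP24A1-high arrays and the others. Over all probes of the other nuclear receptors the CYP24A1-high arrays lay wholly to one side, above or below, for 5 of 51 tested. Over those of the target genes they did so for 3 of 33, against 6.17% of all probes. These values are a description, with no test, since the arrays were set apart by a measured gene and not by their labels.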
